A study of Mus musculus with 4 samples.

Results

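Conventional CD4 T cells are the helper T cells that carry the CD4 coreceptor and lack the regulatory factor Foxp3. Here they were selected on raw counts of unique molecular identifiers (UMIs, each standing for 1 captured transcript molecule) per cell. A member had at least 1 UMI summed over the T cell receptor subunit genes Cd3d, Cd3e and Cd3g, at least 1 UMI of Cd4, none of Foxp3, Cd8a, Cd8b1 or Csf1r, and at most 1 UMI over C1qa, C1qb and C1qc. Barcodes entered with 300 genes or more, no more than 10% of UMIs from mitochondrial genes, and no more than 60000 UMIs. It found 823 cells among 25954 kept cells, of which 278, 88, 352 and 105 came from mice given control IgG, the PD-1 antibody, the PSGL-1 antibody and their combination. Values of all 4 libraries are given in that order throughout. The rule used Cd3d, Cd3e, Cd3g, Cd4, Foxp3, Cd8a, Cd8b1, Csf1r and the C1q genes, so their levels in the members describe the choice and were not tested.

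The cells came from B16-GP33 melanomas, a transplanted mouse tumour line carrying the GP33 epitope, grown under the skin of C57BL/6 mice. Each group received 200 µg per dose of its antibody on days 8, 10 and 12 after tumour injection. One group had control IgG, one an anti-PD-1 antibody, one an anti-PSGL-1 antibody, and the combination group had 200 µg of both blocking antibodies. Tumours were taken on day 18, and living (propidium iodide negative) CD45.2+ immune cells were sorted and run on the 10x Genomics Chromium platform, which reads transcript ends in single cells. The labels give no age or sex of the mice and do not say how many animals went into a library. All groups shared the tumour line, the strain and the sort, and each treatment is 1 library, so a difference between treatments and a difference between libraries cannot be told apart, and no test between treatments was possible.

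As background, conventional CD4 T cells recognise antigen on MHC class II molecules and help other immune cells through surface ligands such as CD40 ligand and through secreted cytokines. They can take on T helper type 1 (interferon gamma), type 2 (interleukins 4, 5 and 13), type 17 or follicular programmes, and in tumours they sit beside Foxp3+ regulatory T cells that restrain them. PD-1, encoded by Pdcd1, is an inhibitory receptor on activated T cells, and PSGL-1, encoded by Selplg, is a selectin ligand on leukocytes that also acts as an inhibitory receptor on T cells.

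The members held 1049971, 419635, 1953312 and 529209 UMIs in all, with medians of 2917.5, 3762, 4220 and 4237 UMIs and 1274.5, 1463.5, 1524.5 and 1648 genes per cell, so the IgG members were the shallowest and the anti-PD-1 members the fewest. Median mitochondrial shares were 2.56, 2.34, 2.31 and 2.25%. No member barcode occurred in more than 1 library, and pairs of libraries shared 5 to 13 barcodes among all kept cells. Levels below are UMIs summed over the members of a library, scaled to counts per 1000000 of the library's member UMIs (CPM), with exact 95% Poisson intervals in parentheses. Ratios between libraries have exact conditional 95% intervals and shares have exact binomial (Clopper-Pearson) ones. These intervals cover counting error only, not the spread between mice.

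Conventional CD4 T cells were a small class in every library and their share was highest with anti-PSGL-1. They were 2.94% of kept cells in the IgG library (2.61 to 3.30%), 1.68% in the anti-PD-1 library (1.35 to 2.07%), 5.12% in the anti-PSGL-1 library (4.61 to 5.67%) and 2.40% in the combination library (1.96 to 2.89%). Among T cells, defined by the same Cd3, Csf1r and C1q criteria, the shares were 7.32, 4.96, 12.2 and 4.83%. For each regulatory T cell (the same gate with Foxp3 at 1 UMI or more) there were 1.41, 1.52, 3.23 and 5 conventional CD4 T cells, from 197, 58, 109 and 21 regulatory cells. The last ratio rests on only 21 regulatory cells. With the gate at 2000 UMIs per cell these ratios were 2.59, 4.67, 8.15 and 9.33, and at 1000 UMIs 5.55, 5.56, 9.08 and 7.33, where the combination was no longer the highest. For every 100 CD8 T cells there were 15.8, 7.39, 24.3 and 6.04 conventional CD4 T cells, and the anti-PSGL-1 library again stood highest. At 2000 UMIs they were 13.1, 6.24, 16.0 and 4.81, and at 1000 UMIs 12.3, 5.36, 11.2 and 2.94, where the IgG library was the highest.

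The gate asks for single UMIs, and the libraries differed in depth. When every kept cell was thinned to 2000 UMIs before the gate, leaving out 1756, 289, 502 and 131 shallower cells, the shares were 2.75, 1.41, 3.46 and 1.98% of kept cells and 6.19, 4.12, 7.85 and 3.88% of T cells. The anti-PSGL-1 share of kept cells was then 3.46% (3.02 to 3.93%) against 2.75% (2.40 to 3.14%) with IgG. At 1000 UMIs the shares of kept cells were 1.78, 0.970, 1.75 and 1.01%, so that the anti-PSGL-1 and IgG shares lay within each other's intervals and the remaining libraries were lower. The order of the anti-PSGL-1 and IgG libraries therefore turned on the depth at which the gate was applied. Thinning also moves cells from the regulatory into the conventional class, since it removes Foxp3 UMIs: regulatory cells numbered 82, 15, 27 and 9 at 2000 UMIs.

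**Figure D1:**
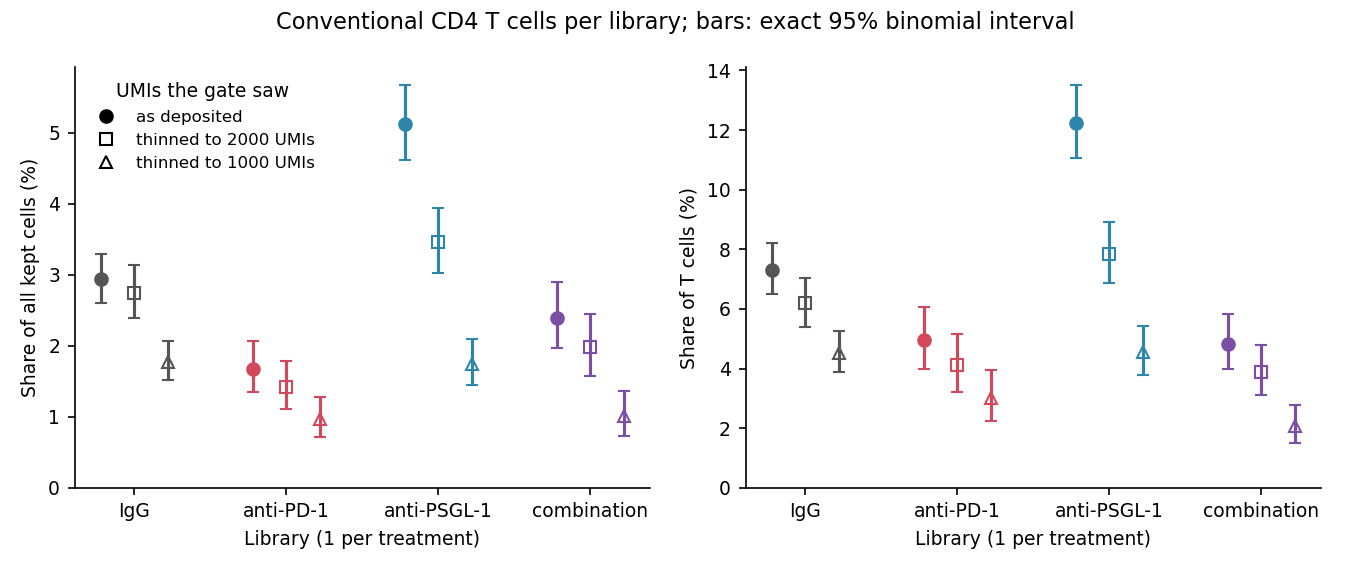
Share of conventional CD4 T cells (vertical axes, percent of all kept cells on the left and of T cells on the right) in the 4 libraries, with the gate applied to the deposited UMIs (filled circles) or after thinning each cell to 2000 (open squares) or 1000 UMIs (open triangles); bars are exact 95% binomial intervals. The anti-PSGL-1 library stands above the others on the deposited UMIs, at 5.12% of kept cells, and level with IgG at 1000 UMIs, at 1.75% and 1.78%.

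Most members passed the gate on few UMIs of Cd4: 178, 41, 202 and 43 members carried exactly 1 Cd4 UMI and 100, 47, 150 and 62 carried more, up to 5, 6, 11 and 7. Median summed Cd3 UMIs were 8, 10, 10 and 16. Just outside the gate lay 66, 16, 23 and 2 otherwise matching T cells with exactly 1 Foxp3 UMI and 20, 3, 15 and 14 with exactly 1 UMI of Cd8a or Cd8b1. A further 1149, 346, 743 and 180 T cells had no UMI of Cd4, Cd8a, Cd8b1 or Foxp3 and could not be placed. The members are therefore the part of the conventional CD4 T cells in which Cd4 was caught.

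The label was set beside the 4 given markers that the gate did not use. The markers and gene lists were chosen with results of these data known. Tnfsf8 (chromosome 4, 63831308 to 63861347; all positions are of protein-coding genes on the mouse GRCm38 build, from the GENCODE vM21 annotation) encodes CD30 ligand. Icos (chromosome 1, 60977927 to 61000320) encodes an inducible costimulatory receptor. Cd40lg (chromosome X, 57212143 to 57224042) encodes CD40 ligand, through which helper T cells activate antigen-presenting cells, and Rora (chromosome 9, 68653786 to 69388246) encodes a nuclear receptor of type 17 and tissue-resident T cells. To compare shares of positive cells at one depth, each cell was thinned to 2000 UMIs, which left 241, 82, 337 and 103 members and left out 37, 6, 15 and 2. Macrophages (no Cd3 UMI, at least 1 of Csf1r and 2 of the C1q genes; 498, 463, 432 and 294 cells with medians of 6075.5, 8021, 8294.5 and 9728.5 UMIs) gave the background share.

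Icos was seen in 73.4, 72.0, 70.3 and 71.8% of thinned members (81.7, 86.4, 84.4 and 89.5% unthinned), against 0.346 to 0.964% of macrophages and 23.8 to 31.0% of CD8 T cells. Rora was seen in 59.8, 48.8, 58.2 and 66.0% (72.7, 68.2, 77.6 and 80.0% unthinned), against 0.346 to 1.75% of macrophages and 16.3 to 20.2% of CD8 T cells. Both genes thus stood above background in all 4 libraries. Tnfsf8 was seen in 6.64, 13.4, 14.8 and 13.6% of thinned members (8.99, 18.2, 21.3 and 18.1% unthinned), in 0.292 to 2.03% of CD8 T cells and in 0 to 0.482% of macrophages. None of the 186, 55, 107 and 20 thinned regulatory T cells held a Tnfsf8 UMI, which allows shares of cells with a UMI at this depth, not of expressing cells, of up to 1.61, 5.45, 2.80 and 15%. Cd40lg was seen in 4.56, 6.10, 12.5 and 7.77% (8.63, 13.6, 26.7 and 19.0% unthinned) and in none of 463, 457, 415 and 289 thinned macrophages, which allows shares with a UMI of up to 0.648, 0.656, 0.723 and 1.04%. Tnfsf8 and Cd40lg were found in a minority of members, at shares above those of macrophages in every library. Macrophages do not tell conventional from regulatory T cells, and the markers were chosen with results known, so these shares describe the members and do not test the label.

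The members were not pure. The 4 MHC class II genes H2-Aa, H2-Ab1, H2-Eb1 and Cd74, which antigen-presenting cells express and mouse T cells do not make in quantity, were found at 10 UMIs or more together in 37, 7, 29 and 2 members (13.3, 7.95, 8.24 and 1.90%), while the median member held 1, 0, 1 and 0 such UMIs. These cells had medians of 8361, 10695, 12435 and 3313 UMIs, against 2778, 3571, 4049 and 4247 in the other members. They carried 28.7, 16.6, 19.6 and 1.25% of the members' summed UMIs. The IgG members thus held the most RNA of this kind and the combination members almost none. A doublet score from simulated cell pairs placed 8, 3, 10 and 0 of them among the highest-scoring barcodes. These were the top 717, 219, 377 and 154 of 9465, 5238, 6869 and 4382 kept cells, and held 16, 6, 14 and 1 of all members. The score had not worked at its own threshold.

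Lists of 9 other lineages were summed over the members. The dendritic list, 8 genes that include Cd74 and H2-Aa, summed to 8098, 4566, 4416 and 88.8 CPM, and to 296, 226, 147 and 47.8 CPM without the MHC class II cells. The macrophage and monocyte list (8 genes, led by Ctss and Lyz2) summed to 744, 1506, 382 and 161 CPM, and to 407, 1311, 233 and 157 without those cells. The natural killer list (7 genes, including the shared myeloid genes Tyrobp and Fcer1g) summed to 609, 877, 429 and 20.8 CPM, and to 164, 366, 155 and 21.0 without those cells. Tyrobp and Fcer1g were its only genes at 50 CPM or more in the anti-PD-1 or combination members, so its sum does not single out natural killer cells. The anti-PD-1 members stood highest on the macrophage and natural killer lists, and the IgG members on the dendritic list. The neutrophil list (5 genes) summed to 156, 2.38, 354 and 17.0 CPM, the plasmacytoid dendritic list (5 genes) to 154, 367, 5.63 and 0, the B cell list (4 genes in the files) to 30.5, 0, 8.19 and 0, the list for gamma delta, NKT and innate lymphoid cells (4 genes in the files, Sox13 at 0 throughout) to 19.0, 9.53, 32.3 and 32.1 and the melanoma list (8 genes, Sox10 and S100b at 0 throughout) to 3.81, 4.77, 2.05 and 5.67. The gamma delta, NKT and innate lymphoid list lacked the receptor genes Trdc and Tcrg-C1, and its gene Il1rl1 is also a type 2 gene. All 4 mast cell and basophil genes, Cpa3, Mcpt8, Fcer1a and Ms4a2, were at 0 in every library. The part of these cells in each comparison was not tested beyond leaving out the MHC class II cells.

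**Figure D2:**
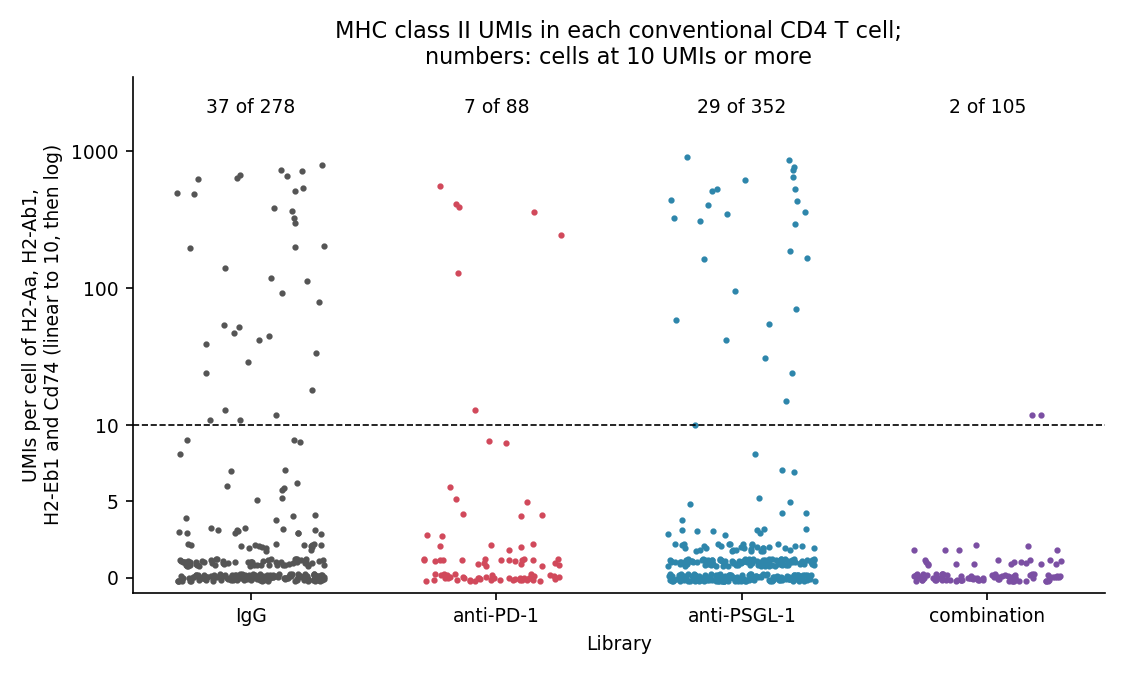
Summed UMIs of H2-Aa, H2-Ab1, H2-Eb1 and Cd74 in each conventional CD4 T cell (points; vertical axis linear to 10 and logarithmic above) in the 4 libraries, with the dashed line at 10 UMIs. Cells at or above the line number 37, 7, 29 and 2, and the highest cell holds 793, 563, 915 and 12 UMIs.

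Some members also carried regulatory T cell genes. Cells with a UMI of both Il2ra, the interleukin 2 receptor alpha chain, and Ikzf2, the Helios factor of regulatory T cells, numbered 27, 15, 19 and 9 (9.71, 17.0, 5.40 and 8.57% of members), against 43.7, 63.8, 63.3 and 61.9% of the regulatory cells. Cells with a UMI of the division genes Mki67 or Top2a, called dividing here, numbered 56, 19, 90 and 22 (20.1, 21.6, 25.6 and 21.0%), below the 37.1, 46.6, 44.0 and 42.9% of regulatory and 37.9, 52.5, 45.5 and 55.3% of CD8 T cells, both of which were deeper. These shares were not thinned and are descriptions.

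Against regulatory T cells of the same tumours, conventional CD4 T cells were marked by tumour necrosis factor family ligands, interferon gamma and genes of less differentiated T cells, and had less of the regulatory programme and of cell cycle genes. Tnfsf8 was at 76.2, 141, 144 and 128 CPM in the members and 0.773, 0, 0 and 0 CPM in the regulatory T cells. Tnfsf11, which encodes RANK ligand, was at 67.6, 131, 130.0 and 132 CPM in the members and 10.0, 11.8, 5.25 and 0 CPM in the regulatory T cells. Cd40lg was at 29.5, 33.4, 65.5 and 58.6 CPM in the members and 3.09, 0, 5.25 and 0 CPM in the regulatory T cells. For each of these 3 ligands, every member value lay above every regulatory value.

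UMIs were summed per library and class (8 sums), and edgeR's quasi-likelihood test with the library as a block and Benjamini-Hochberg adjustment was run over 6564 genes. It called 655 genes higher in the members (9.98% of the genes tested) and 521 lower (7.94%). With 4 libraries per class and the library as a block, the p-values set the class difference against its variation between libraries of different treatments. Tnfsf8 was higher by 7.87 ± 0.39 on the log2 scale (SE, adjusted p = 1.1e-07 in edgeR, 4 of 4 libraries), a value that depends on the prior count since 3 regulatory sums were 0. Tnfsf11 was higher by 3.73 ± 0.31 (edgeR, adjusted p = 4.0e-06), and Cd40lg by 3.84 ± 0.38 (edgeR, adjusted p = 1.7e-05), each in 4 of 4 libraries. The regulatory cells were deeper, with medians of 5087, 6162, 6418 and 4930 UMIs, and depth enters a gate on Foxp3. With both classes gated after thinning to 2000 UMIs, 131 genes were higher and 123 lower of 4583 tested. Without the IgG library the counts were 412 and 275, and DESeq2 gave 350 and 272 with all libraries.

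Of the other given markers, Rora was at 534, 448, 543 and 595 CPM in the members and 319, 364, 336 and 351 CPM in the regulatory T cells, and was higher by 0.70 ± 0.11 on the log2 scale (edgeR, adjusted p = 6.5e-04, 4 of 4 libraries). Icos, which regulatory T cells also use, was at 923, 991, 723 and 867 CPM in the members and 774, 859, 637 and 655 CPM in the regulatory T cells. The ranges overlapped, but within each library the members stood higher, by 0.32 ± 0.08 (edgeR, adjusted p = 0.018, 4 of 4 libraries). Selplg, the gene of the antibody target PSGL-1, was at 469.5, 477, 366 and 435 CPM in the members and 363, 407, 355 and 330.4 CPM in the regulatory T cells, with a difference of 0.31 ± 0.10 (edgeR, adjusted p = 0.049). Under the gate on thinned cells, both differences turned to the opposite sign, -0.28 for Icos and -0.32 for Selplg. Pdcd1, the gene of PD-1, was at 135, 295, 154 and 321 CPM in the members and 218, 440.2, 213 and 336 CPM in the regulatory T cells, a log2 difference of -0.40 ± 0.12 (edgeR, adjusted p = 0.039, 4 of 4 libraries lower).

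Genes of conventional effector cells led the rest. Ifng, which encodes interferon gamma, averaged 304 ± 172 CPM (SD, n = 4 libraries) in the members and 34.2 ± 11.7 CPM in the regulatory cells, a log2 difference of 3.06 ± 0.23 (edgeR, adjusted p = 2.2e-06). Ms4a4b, a membrane protein of T cells, averaged 1145 ± 354 against 115 ± 42.5 CPM, and Fasl, the death ligand, 109 ± 25.2 against 9.93 ± 3.71. Tcf7, the TCF1 factor of naive and memory T cells, averaged 94.3 ± 20.3 against 7.18 ± 6.56 CPM. The naming rule also gave Gzma, a granzyme protease (194 ± 149.6 against 17.8 ± 10.8 CPM), Serpinb1a, a protease inhibitor (173 ± 29.5 against 17.4 ± 11.8 CPM), and Cd226, an activating receptor (72.1 ± 15.7 against 7.24 ± 2.74 CPM). All were higher in the members in 4 of 4 libraries, which the naming rule required of all but Ifng, with log2 differences from 3.06 to 3.51.

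On the other side, Ikzf2 was at 479, 565, 118 and 134 CPM in the members and 1505, 1898, 1317 and 1536 CPM in the regulatory T cells, a log2 difference of -2.45 ± 0.26 (edgeR, adjusted p = 3.5e-05). Its member values spread widely, and even the highest lay below every regulatory value. Lrrc32, which anchors latent transforming growth factor beta on regulatory T cells, averaged 17.6 ± 14.6 against 109 ± 17.1 CPM (SD, n = 4), and Ikzf4, a relative of Helios, 19.2 ± 20.5 against 89.4 ± 24.9. Itgb8, an integrin chain, averaged 21.4 ± 19.3 against 84.5 ± 22.2 CPM, and Klrg1, a lectin-like inhibitory receptor, 47.7 ± 9.43 against 217 ± 86.1. Bmyc, Snx9 and Sv2c completed the genes named on this side, at 33.4 ± 24.5, 20.3 ± 13.6 and 25.8 ± 21.8 CPM in the members against 147 ± 57.1, 91.4 ± 2.37 and 114 ± 21.6 CPM. All 8 were lower in 4 of 4 libraries, which the naming rule required.

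By list, of the regulatory T programme 1 gene was higher (Nrp1) and 16 were lower of 18 tested, with a median log2 difference of -1.44 against 0.00 over all genes. The list holds genes known from Foxp3+ cells, and the classes were split on Foxp3. Ctla4, an inhibitory receptor on this list, was at 513, 853, 245 and 379.8 CPM in the members and 1113, 1579, 1321 and 1185 CPM in the regulatory T cells. The cell cycle genes had 0 higher and 14 lower of 20 tested (median -0.86). Mki67, the Ki-67 proliferation marker, averaged 88.2 ± 48.8 against 233 ± 57.2 CPM (SD, n = 4). Hypoxia and glycolysis genes had 1 higher and 7 lower of 16 tested (median -0.34), and inhibitory receptor and exhaustion genes 3 higher and 6 lower of 13 tested (median -0.40), where the 3 higher genes were the early response factors Nr4a1, Nr4a2 and Nr4a3 and the lower ones were receptors such as Lag3 and Havcr2, with Tox.

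Lists with more genes higher than lower in the members began with the naive and recirculating genes, 7 higher and 0 lower of 11 tested (median 0.77). Among them Satb1, a chromatin organiser of T cell development, averaged 239 ± 27.4 against 65.6 ± 7.79 CPM (SD, n = 4), and Lef1, a partner of TCF1, 72.9 ± 9.33 against 28.0 ± 7.09. T helper type 1 genes had 8 higher and 2 lower of 14 tested (median 0.83), among them Cxcr6, a chemokine receptor of tissue T cells, at 325 ± 68.3 against 71.8 ± 50.2 CPM. T cell receptor response genes had 8 higher and 1 lower of 14 tested (median 0.69). Cd69, an early activation and retention marker, averaged 508 ± 228 against 75.3 ± 15.8 CPM, and the immediate early factor Egr1 322 ± 169 against 52.1 ± 39.9.

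Homing receptor and integrin genes had 10 higher and 3 lower of 18 tested (median 0.43), type I interferon response genes 8 higher and 1 lower of 18 tested (median 0.54), gamma chain cytokine signalling genes 7 higher and 2 lower of 14 tested (median 0.41), selectin ligand pathway genes 4 higher and 0 lower of 6 tested (median 0.47) and heat shock and dissociation stress genes 4 higher and 0 lower of 12 tested (median 0.56). Among the interferon response genes, Isg15 averaged 429 ± 177 against 251 ± 90.5 CPM (SD, n = 4). Lists with calls on both sides were helper costimulation with 6 higher and 4 lower of 11 tested (median 0.32), cytotoxic genes with 7 higher and 5 lower of 15 tested (median 0.56), follicular helper genes with 4 higher and 4 lower of 11 tested (median 0.32) and cytokines and chemokines with 3 higher and 3 lower of 11 tested (median 0.30). The type 2 list had 1 higher and 2 lower of 5 tested (median -0.13) and the type 17 list 2 higher and 0 lower of 5 tested (median 0.35). Of the 12 other lineage genes tested, 0 were called in edgeR (1 had an unadjusted p under 0.05) and 0 in DESeq2.

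Against CD8 T cells, conventional CD4 T cells had more of the helper ligands and receptors, of interferon response and homing genes, and less of the granule proteins and of every cell cycle gene on the list. Icos was at 923, 991, 723 and 867 CPM in the members and 154, 146, 134 and 182 CPM in the CD8 T cells. Cd40lg was at 29.5, 33.4, 65.5 and 58.6 CPM in the members and 0.479, 0.678, 1.49 and 0.277 CPM in the CD8 T cells. Rora was at 534, 448, 543 and 595 CPM in the members and 105, 101, 125 and 99.6 CPM in the CD8 T cells. Tnfsf8 was at 76.2, 141, 144 and 128 CPM in the members and 9.0, 3.69, 9.88 and 0.971 CPM in the CD8 T cells. No member value of these 4 genes overlapped a CD8 value.

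Over 10397 genes, edgeR's quasi-likelihood test called 1717 higher in the members (16.5% of the genes tested) and 1704 lower (16.4%). Cd40lg was higher by 6.02 ± 0.36 on the log2 scale (SE, edgeR, adjusted p = 1.7e-06), Tnfsf8 by 4.45 ± 0.44 (edgeR, adjusted p = 4.2e-05), Icos by 2.46 ± 0.10 (edgeR, adjusted p = 1.3e-07) and Rora by 2.25 ± 0.11 (edgeR, adjusted p = 3.7e-07), each in 4 of 4 libraries. Pdcd1 was at 135, 295, 154 and 321 CPM in the members and 431, 578, 410.4 and 631 CPM in the CD8 T cells, a log2 difference of -1.31 ± 0.12 (edgeR, adjusted p = 2.8e-05, 4 of 4 libraries lower). Selplg was at 469.5, 477, 366 and 435 CPM in the members and 468, 438, 458 and 476 CPM in the CD8 T cells, and its difference of -0.14 ± 0.09 was not called (edgeR, adjusted p = 0.28). Ifng was at 161, 209.7, 298 and 548 CPM in the members and 206, 529.6, 165 and 364 CPM in the CD8 T cells, and its difference of -0.05 ± 0.29 was not called either (edgeR, adjusted p = 0.93). The members were the shallower class, with CD8 medians of 4431.5, 9859, 7600 and 10696 UMIs.

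The genes with the largest differences included regulators and secreted proteins. Maf, a transcription factor of helper T cells, averaged 354 ± 106 CPM (SD, n = 4) in the members and 34.4 ± 17.5 in CD8 T cells. Tnfsf11 averaged 115 ± 31.8 against 8.16 ± 3.56 CPM, and Furin, a protease that activates secreted precursors, 252 ± 28.4 against 25.0 ± 4.88. Lgals7 (galectin 7) averaged 79.0 ± 58.5 against 1.92 ± 1.51 CPM, Timp2 (a metalloprotease inhibitor) 60.5 ± 22.9 against 4.11 ± 2.57, Ramp3 (a receptor activity modifier) 259.5 ± 52.0 against 24.1 ± 8.56 and Serpinb1a 173 ± 29.5 against 20.9 ± 9.82. All 7 were higher in the members in 4 of 4 libraries, which the naming rule required, by 3.03 to 5.31 on the log2 scale.

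The genes lower in the members were those of cytotoxic cells. Prf1, which encodes perforin, was at 5.71, 21.4, 9.22 and 15.1 CPM in the members and 150.3, 413, 138 and 436 CPM in the CD8 T cells. The granzyme genes Gzmd, Gzme and Gzmf averaged 1.19 ± 2.38, 0.724 ± 1.13 and 3.45 ± 5.71 CPM (SD, n = 4) against 204 ± 203, 191 ± 184 and 635 ± 661. They are close copies of each other, so reads may be divided among them. Eomes, a factor of cytotoxic T cells, averaged 4.24 ± 4.62 against 65.4 ± 23.2 CPM, and Cd160, an inhibitory receptor, 4.78 ± 4.55 against 96.7 ± 15.2. Serpinb9b averaged 4.98 ± 9.29 against 119.6 ± 113 CPM and Serpine2 5.39 ± 6.24 against 211 ± 128. All 8 were lower in 4 of 4 libraries, which the naming rule required, by log2 differences of -3.66 to -7.86.

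By list, with medians of log2 differences to be read against -0.02 over all genes, helper costimulation had 10 higher and 2 lower of 12 tested (median 1.57), where the lower genes were Cd27 and Tnfrsf9. Type I interferon response genes had 19 higher and 0 lower of 21 tested (median 1.28), T cell receptor response genes 12 higher and 2 lower of 16 tested (median 1.44), homing receptors and integrins 11 higher and 0 lower of 20 tested (median 1.26) and gamma chain cytokine signalling 11 higher and 1 lower of 16 tested (median 0.81). The helper lists leaned the same way. Type 2 genes had 5 higher and 0 lower of 6 tested (median 1.31), type 17 genes 5 higher and 0 lower of 6 tested (median 1.99) and follicular helper genes 8 higher and 3 lower of 14 tested (median 1.62). Naive and recirculating genes had 8 higher and 2 lower of 14 tested (median 0.91), type 1 genes 7 higher and 4 lower of 14 tested (median 0.40) and heat shock genes 7 higher and 2 lower of 13 tested (median 1.19).

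The regulatory T programme had 11 higher and 1 lower of 18 tested (median 1.17), a list on which the members lay below regulatory T cells and above CD8 T cells. Cytotoxic genes had 2 higher and 14 lower of 19 tested (median -1.68), inhibitory receptors and exhaustion 4 higher and 9 lower of 15 tested (median -1.11) and cell cycle genes 0 higher and 20 lower of 20 tested (median -1.36). Cytokines and chemokines had 6 higher and 5 lower of 16 tested (median 0.44), with Tnf, Csf2, Il10, Lta, Ltb and Areg higher and Xcl1, Ccl3, Ccl5, Spp1 and Csf1 lower. Hypoxia and glycolysis genes had 5 higher and 3 lower of 17 tested (median 0.10) and selectin ligand pathway genes 2 higher and 1 lower of 9 tested (median -0.05). Of the 28 other lineage genes tested, 11 were called higher and 1 lower (Klre1), against 16.5 and 16.4% of all genes tested. Among the higher ones were the dendritic genes Xcr1 and Clec9a and the B cell gene Cd79a. DESeq2 called 7 of the 28 higher and 1 lower. Without the MHC class II cells of both classes, 1644 genes were called higher and 1667 lower of 9876 tested.

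**Figure D3:**
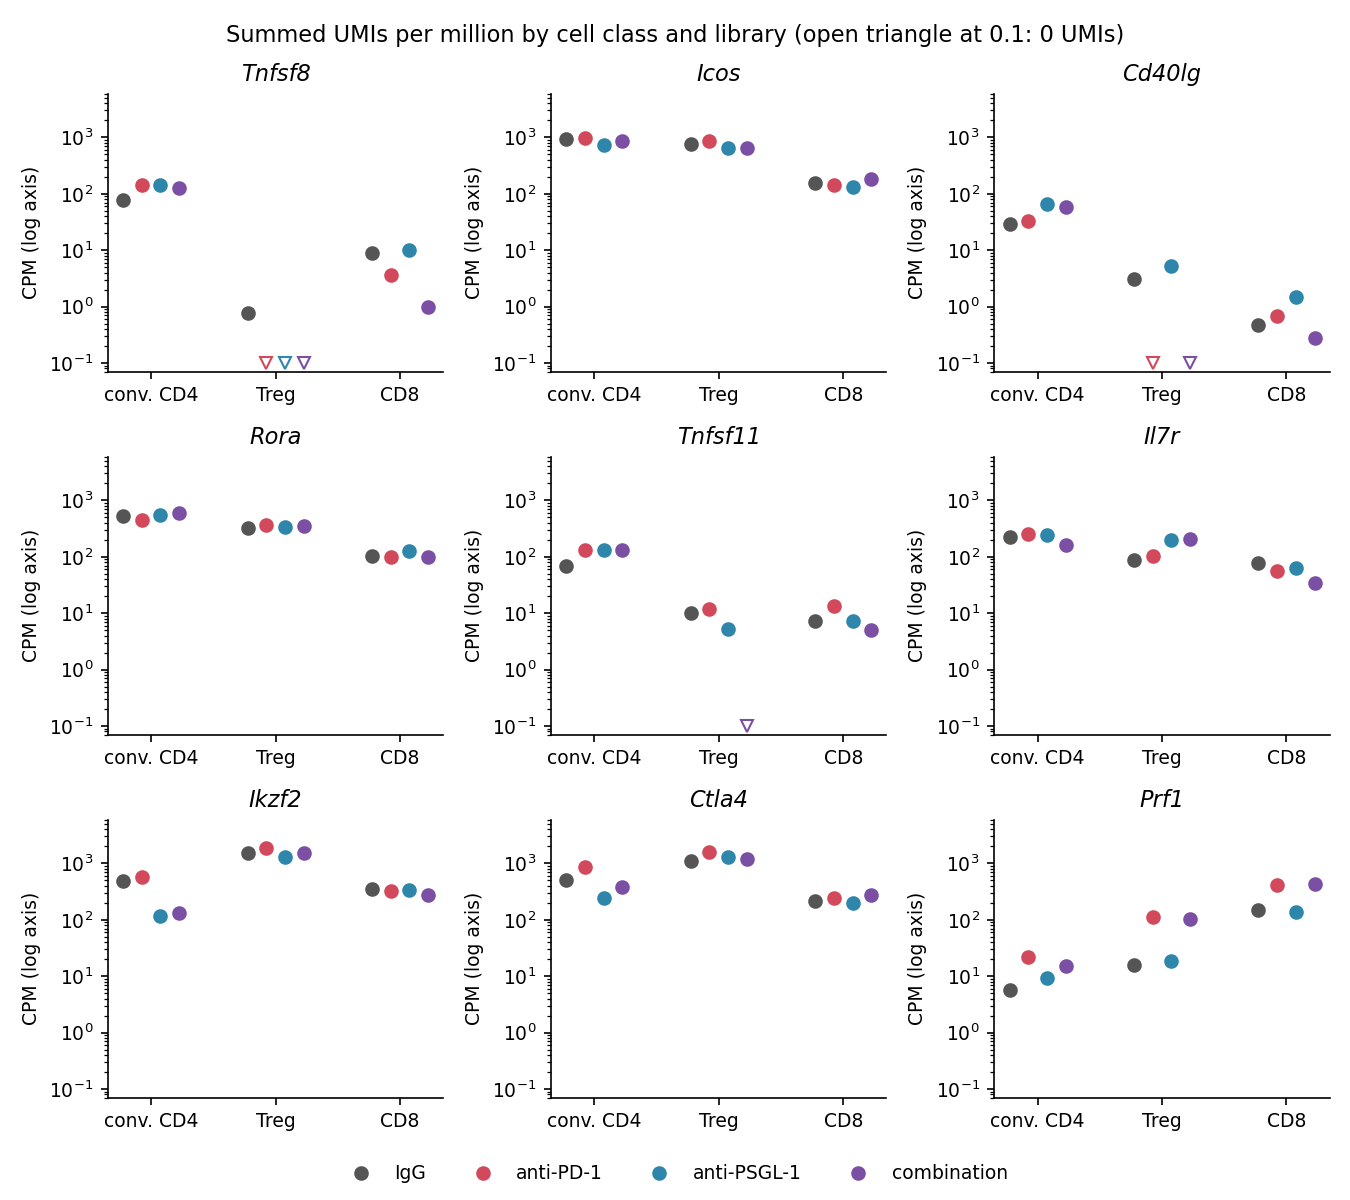
Levels of 9 genes (CPM of summed UMIs, logarithmic vertical axes) in conventional CD4, regulatory (Treg) and CD8 T cells, 1 point per library in the library's colour; an open triangle at 0.1 stands for 0 UMIs. Tnfsf8, Cd40lg and Tnfsf11 are highest in the conventional cells, Ikzf2 and Ctla4 in the regulatory cells (Ikzf2 at 1505, 1898, 1317 and 1536 CPM) and Prf1 in the CD8 cells (150.3, 413, 138 and 436 CPM).

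Across the libraries, the ligand genes Tnfsf8 and Tnfsf11 stood higher in the members of each treated library than in those of the IgG library. The 3 comparisons with IgG share that library, and the 3 with the combination share that one, so one library's level enters several of them. Tnfsf8 was at 76.2 CPM (60.4 to 94.8), 141 CPM (107 to 181), 144 CPM (128 to 162) and 128 CPM (99.8 to 163). The 3 treated libraries lay close together above IgG, at ratios of 1.85 (1.30 to 2.62), 1.89 (1.47 to 2.45) and 1.69 (1.20 to 2.36). Without dividing cells Tnfsf8 was at 88.5, 84.4, 127 and 94.4 CPM. The anti-PD-1 ratio was then 0.953, so its order against IgG rests on dividing cells. The intervals of the treated libraries, 54.6 to 125, 107 to 149 and 66.1 to 131, then each overlapped that of IgG, 68.6 to 112. Tnfsf11 was at 67.6, 131, 130.0 and 132 CPM, with ratios to IgG of 1.94 (1.34 to 2.80), 1.92 (1.47 to 2.54) and 1.96 (1.39 to 2.76). Without the MHC class II cells the combination ratios were 1.34 for Tnfsf8 and 1.41 for Tnfsf11, and the anti-PSGL-1 ratio of Tnfsf11 was 1.499, all 3 under 1.5-fold.

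Cd40lg was at 29.5 CPM (20.1 to 41.9), 33.4 CPM (18.2 to 56.0), 65.5 CPM (54.7 to 77.9) and 58.6 CPM (39.8 to 83.1). The libraries with anti-PSGL-1 stood higher, at 2.22 (1.49 to 3.40) and 1.98 (1.17 to 3.37) times IgG. Of the CPM intervals, only those of anti-PSGL-1 and IgG did not overlap. Icos was at 923, 991, 723 and 867 CPM and Rora at 534, 448, 543 and 595 CPM, with no pair of libraries past 1.5-fold for either gene. Cd4 itself, fixed by the gate, was at 398, 403, 329 and 406 CPM.

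Of the antibody targets, Pdcd1 (chromosome 1, 94038305 to 94052553) was higher in both libraries that received anti-PD-1. It was at 135 CPM (114 to 159), 295 CPM (246 to 352), 154 CPM (137 to 173) and 321 CPM (275 to 373), and the intervals of those libraries did not overlap those of the other libraries. Relative to IgG, the anti-PD-1 library stood at 2.18 (1.70 to 2.80), the anti-PSGL-1 library at 1.14 (0.930 to 1.40) and the combination library at 2.38 (1.89 to 2.99). In thinned cells Pdcd1 was seen in 18.3, 31.7, 17.2 and 29.1% of members (25.9, 47.7, 30.4 and 40.0% unthinned; macrophages 0.241 to 1.73%). Selplg (chromosome 5, 113818536 to 113832644) was at 469.5 CPM (429 to 513), 477 CPM (413 to 547), 366 CPM (339 to 393) and 435 CPM (380.3 to 495). The anti-PSGL-1 library was the lowest, at 0.778 (0.693 to 0.875) times IgG, short of the 1.5-fold threshold. Selplg was seen in 56.4, 57.3, 51.9 and 50.5% of thinned members (70.1, 78.4, 73.3 and 72.4% unthinned), but also in 20.2 to 24.9% of macrophages, which express it.

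With anti-PD-1 the members had more of the inhibitory receptor genes and of type I interferon response genes than the IgG members, and less of several cell cycle genes. Lag3, a receptor for MHC class II, was at 54.3 CPM (41.1 to 70.3) with IgG and 195 CPM (155 to 243) with anti-PD-1, a ratio of 3.60 (2.54 to 5.14). Ctla4 was at 513 CPM (471 to 559) and 853 CPM (767 to 946), a ratio of 1.66 (1.45 to 1.90). Without the cells with Il2ra and Ikzf2, Ctla4 was at 459 and 581 CPM, under 1.5-fold apart. Isg15, an interferon-induced ubiquitin-like protein, was at 366 CPM (330.1 to 404) and 632 CPM (558 to 712), a ratio of 1.73 (1.47 to 2.02). Without the MHC class II cells, which held 31.3% of its anti-PD-1 UMIs, that ratio was 1.43, under the 1.5-fold threshold used below.

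Genes reaching 50 CPM in at least 1 of the compared libraries were measured, and a gene counted as higher or lower at 1.5-fold or more. Medians of lists are of log2 ratios, and counts of list members are to be read against the shares of all genes. Of 3219 such genes, 318 were higher with anti-PD-1 (9.88%) and 210 lower (6.52%), and the median log2 ratio was 0.06. Inhibitory receptors and exhaustion had 6 higher and 0 lower of 8 measured (median 0.84, without the MHC class II cells 6 and 0 of 8): Lag3, Pdcd1, Rgs16, Tox, Nr4a2 and Ctla4. Type I interferon response genes had 10 higher and 0 lower of 14 measured (median 0.76, without the MHC class II cells 4 and 0 of 12, with each cell weighed the same 7 and 0 of 13). Cytotoxic genes had 5 higher and 0 lower of 13 measured (median 0.25), cytokines and chemokines 5 higher and 0 lower of 10 measured (median 0.91) and helper costimulation 3 higher and 0 lower of 10 measured (median 0.37, without the cells with Il2ra and Ikzf2 0 and 0 of 10). Cell cycle genes had 1 higher and 8 lower of 13 measured (median -0.70, without the MHC class II cells 2 and 5 of 12). Dividing cells were 21.6% of the anti-PD-1 and 20.1% of the IgG members. The macrophage and monocyte genes summed to 1506 CPM with anti-PD-1 and 744 CPM with IgG, and their part in these counts was not tested.

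Among the genes that led this comparison, some rest on few cells or UMIs, and Hist1h2ap was low in other T cell classes too. Hist1h2ap, a replication-dependent histone gene, was at 420.0 and 9.53 CPM in the members, and it was also lowest of the 4 libraries in anti-PD-1 regulatory (99.4 CPM) and CD8 T cells (162 CPM). The histone gene Hist1h2ae had no UMI with anti-PD-1 against 134 with IgG, a ratio of at most 0.0560 with 3 UMIs as the floor, and an exact upper limit of 0.0698. Birc5, a cell division gene, had 3 against 78 UMIs, a ratio of 0.0962 (0.0194 to 0.292).

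Of the genes leading on the higher side, Nos2, which encodes inducible nitric oxide synthase, had 25 of its 26 UMIs in 1 cell, which was one of the MHC class II cells. Ccl1, a chemokine, had 35 of 37 UMIs in 1 cell, and Csf2, the growth factor GM-CSF, had 27 UMIs in 3 cells. These values are those of a few cells. Ccl3, a chemokine of activated T cells, was at 63.8 CPM (49.5 to 81.0) and 462 CPM (399.5 to 532) in 15 and 11 cells, a ratio of 7.24 (5.46 to 9.71), and 11.6 without the MHC class II cells. Gldc (glycine decarboxylase) had 0 UMIs with IgG and 23 in 9 cells with anti-PD-1, at least 19.2-fold higher with 3 UMIs as the floor, and an exact lower limit of 14.4. Nrgn (neurogranin) had 10 against 45 UMIs, 27 of them in 1 cell, a ratio of 11.3 (5.59 to 25.1), and 24.1 without the MHC class II cells. In CD8 T cells the anti-PD-1 and combination libraries were the highest for both Gldc and Nrgn, at 67.0, 111, 54.6 and 132 and 175, 355, 140.5 and 334 CPM over the 4 libraries.

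On the lower side, Il4i1, an amino acid oxidase, had 53 UMIs with IgG, all in MHC class II cells, and 0 with anti-PD-1. Fabp5, a fatty acid binding protein, was at 480.0 and 64.3 CPM, with 90.3% of the IgG UMIs in MHC class II cells, and its ratio was 0.134 (0.0875 to 0.197) with and 0.917 without those cells. Of the helper lists, type 1 genes had 1 higher and 2 lower of 14 measured (median 0.08), type 2 genes 1 higher and 0 lower of 3 measured (median 0.39), type 17 genes 0 higher and 1 lower of 5 measured (median -0.26) and follicular helper genes 3 higher and 0 lower of 7 measured (median 0.40). Naive and recirculating genes had 0 higher and 2 lower of 10 measured (median 0.05), the regulatory programme 2 higher and 1 lower of 11 measured (median 0.24) and T cell receptor response genes 1 higher and 1 lower of 14 measured (median 0.16). Hypoxia and glycolysis genes had 1 higher and 1 lower of 13 measured (median 0.13), homing genes 1 higher and 2 lower of 16 measured (median -0.05), gamma chain signalling genes 2 higher and 1 lower of 14 measured (median 0.17) and heat shock genes 1 higher and 1 lower of 12 measured (median -0.04). None of the 5 selectin ligand pathway genes measured was past 1.5-fold.

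With anti-PSGL-1 the members had less of the regulatory T programme and of the interferon response than the IgG members, and a few cells made large amounts of type 2 cytokine transcripts. Ikzf2 (chromosome 1, 69531214 to 69687245) was at 479 CPM (438 to 523), 565 CPM (495 to 641), 118 CPM (104 to 135) and 134 CPM (105 to 169). Both libraries with anti-PSGL-1 were far below the other pair, with no overlap of intervals. The ratio of anti-PSGL-1 to IgG was 0.247 (0.210 to 0.289), and 0.246 without the MHC class II cells. In the regulatory T cells Ikzf2 was at 1505, 1898, 1317 and 1536 CPM. Whether the classes differ in this respect was not tested.

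Of 2988 genes, 118 were higher with anti-PSGL-1 (3.95%) and 185 lower (6.19%), with a median log2 ratio of -0.09. TMM scaling, which sets the bulk of genes level, gave 160 higher and 119 lower, since it moves the median ratio by 0.11 on the log2 scale. The regulatory T programme had 0 higher and 7 lower of 11 measured (median -0.61, without the cells with Il2ra and Ikzf2 1 and 4 of 9, with each cell weighed the same 0 and 4 of 11). The lower genes were Ikzf2, Ctla4, Izumo1r, Capg, Klrg1, Tnfrsf18 and Tnfrsf9. Ctla4 was at 245 CPM (224 to 268), a ratio of 0.478 (0.421 to 0.541). Cells with Il2ra and Ikzf2 were 5.40% of members with anti-PSGL-1 and 9.71% with IgG, and otherwise matching cells with exactly 1 Foxp3 UMI numbered 23 and 66. Their part in the result was not tested beyond leaving out the former.

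Type I interferon response genes had 0 higher and 6 lower of 11 measured (median -0.67, without the MHC class II cells 0 and 6 of 11): Isg20, Bst2, Irf7, Zbp1, Isg15 and Trim30a were lower. Isg15 was at 219 CPM (198 to 240.4) against 366 CPM (330.1 to 404), a ratio of 0.598 (0.520 to 0.688). Cell cycle genes had 5 higher and 0 lower of 16 measured (median 0.40, without the MHC class II cells 8 and 0 of 15) and heat shock genes 5 higher and 0 lower of 12 measured (median 0.53, with each cell weighed the same 7 and 0 of 12). Helper costimulation had 3 higher and 3 lower of 11 measured (median -0.35, with each cell weighed the same 1 and 1 of 11), with Cd40lg, Tnfsf11 and Tnfsf8 higher and Cd27, Tnfrsf18 and Tnfrsf9 lower. Those higher are ligands and those lower are receptors, of which Tnfrsf18 and Tnfrsf9 also stand on the regulatory list. Cd27, a costimulatory receptor, was at 169, 276, 54.8 and 144 CPM, a ratio of 0.325 (0.253 to 0.415).

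Other genes named on the lower side were Chchd10, a mitochondrial protein gene, at 82.9 and 23.0 CPM (0.278, interval 0.190 to 0.403), Klrd1, a lectin-like receptor, at 199 and 76.8 CPM (0.386, interval 0.311 to 0.478), and Bmyc at 56.2 and 17.4 CPM (0.310, interval 0.197 to 0.480), the last at 0.180 without the MHC class II cells. Il1r2, the decoy interleukin 1 receptor, was at 208 and 69.6 CPM, with 69.7% of the IgG UMIs in MHC class II cells. Its ratio was 0.335 (0.269 to 0.417), and 0.513 without them. Regulatory T cells held Bmyc at 179, 185, 163 and 62.9 CPM and Il1r2 at 201, 199, 166 and 115 CPM.

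Among cytokines, Ifng (chromosome 10, 118441046 to 118445892) was the most widely expressed of those described, with UMIs in 54, 18, 111 and 31 members. It was at 161 CPM (138 to 187), 209.7 CPM (168 to 258), 298 CPM (274 to 323) and 548 CPM (487 to 615). In thinned cells it was seen in 14.5, 14.6, 21.7 and 23.3% of members (19.4, 20.5, 31.5 and 29.5% unthinned; macrophages 0 to 0.692%). Both libraries with anti-PSGL-1 stood above the others, at 1.85 (1.56 to 2.21) times IgG for anti-PSGL-1 alone. Without dividing cells Ifng was at 161, 128, 321 and 233 CPM.

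The type 2 cytokine genes sit close together on chromosome 11. Il13 (chromosome 11, 53631324 to 53634702) had 1, 0, 255 and 1 UMIs. The 255 UMIs with anti-PSGL-1 lay in 11 cells, and 3 of these held 83, 80 and 77. Il5 (chromosome 11, 53720794 to 53725106) had 0, 0, 156 and 29 UMIs, 83 and 27 of which were in 1 cell each in the anti-PSGL-1 and combination libraries. Csf2 (chromosome 11, 54247271 to 54249667) had 223 UMIs in 15 anti-PSGL-1 cells, 115 of them in 1, against 1 UMI with IgG. The ratios to IgG, 137 (24.4 to 5435) for Il13 and 119.9 (21.3 to 4756) for Csf2, and at least 28.0 for Il5 at the floor (exact lower limit 22.5), are therefore those of a few cells. Without the cell with the most UMIs in each library they were at least 31.0, 19.4 and 13.2, with 3 UMIs as the floor for IgG, where none were left.

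The cells rich in these transcripts were looked at one by one, a choice made after their values were seen. The anti-PSGL-1 cell with 80 UMIs of Il13 held 83 of Il5, 9 of Il4, 40 of Ccl1, 4 of Gata3 (the type 2 master factor) and 8 of Il1rl1 (the interleukin 33 receptor), with 13 of Cd3d and 7 of Cd4, among 15194 UMIs. A further cell held 83 UMIs of Il13, 26 of Il5, 22 of Il4 and 3 of Gata3, with 14 of Cd3d and 6 of Cd4. Both held T cell receptor subunit and type 2 transcripts together, and both carried a UMI of a division gene. Both also fell among the other lineage cells described below, the first by its Il1rl1 UMIs and the second, without Il1rl1, by other genes. The third, with 77 UMIs of Il13 and 44 of Csf2 among 35443, also held 534 MHC class II UMIs. In the combination library the cell with 27 Il5 UMIs held 16 of Il4, 43 of Ccl1, 5 of Gata3 and 7 of Il1rl1.

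Ccl1 (chromosome 11, 82176657 to 82305690), a chemokine of activated and type 2 T cells, was spread over more cells, with 212 UMIs in 23 anti-PSGL-1 members against 2 in 1 IgG member, a ratio of 57.0 (15.6 to 474). Igfbp7, a secreted binding protein, was at 5.71, 35.7, 81.4 and 117 CPM in 4, 3, 31 and 12 cells, a ratio to IgG of 14.2 (6.40 to 39.4) with anti-PSGL-1 (22.7 without the MHC class II cells), and was at 19.4, 30.2, 11.9 and 18.7 CPM in CD8 T cells. It stood highest in the members of the libraries with anti-PSGL-1 and not in their CD8 T cells. The granzyme gene Gzmc had 157 UMIs with anti-PSGL-1, 104 of them in 1 cell. Il4 had 2 and 34 UMIs with IgG and anti-PSGL-1 (9.14, interval 2.34 to 78.5), and its ratio turned to 0.254 without other lineage cells and 0.326 without dividing cells, on a few UMIs. Other lineage cells held 3 UMIs or more of most genes of those lists together, and Il1rl1, also on the type 2 list, is among them. That filter therefore leaves out the cell with 9 Il4 and 8 Il1rl1 UMIs whatever its lineage. It also left out the cell with 22 Il4 UMIs, since the ratio of 0.254 cannot arise with that cell kept. That cell held no Il1rl1 UMI and so reached 3 UMIs on other genes of those lists. Cytokines and chemokines as a list had 6 higher and 0 lower of 12 measured (median 0.46) and type 2 genes 2 higher and 0 lower of 5 measured (median 0.52).

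**Figure D4:**
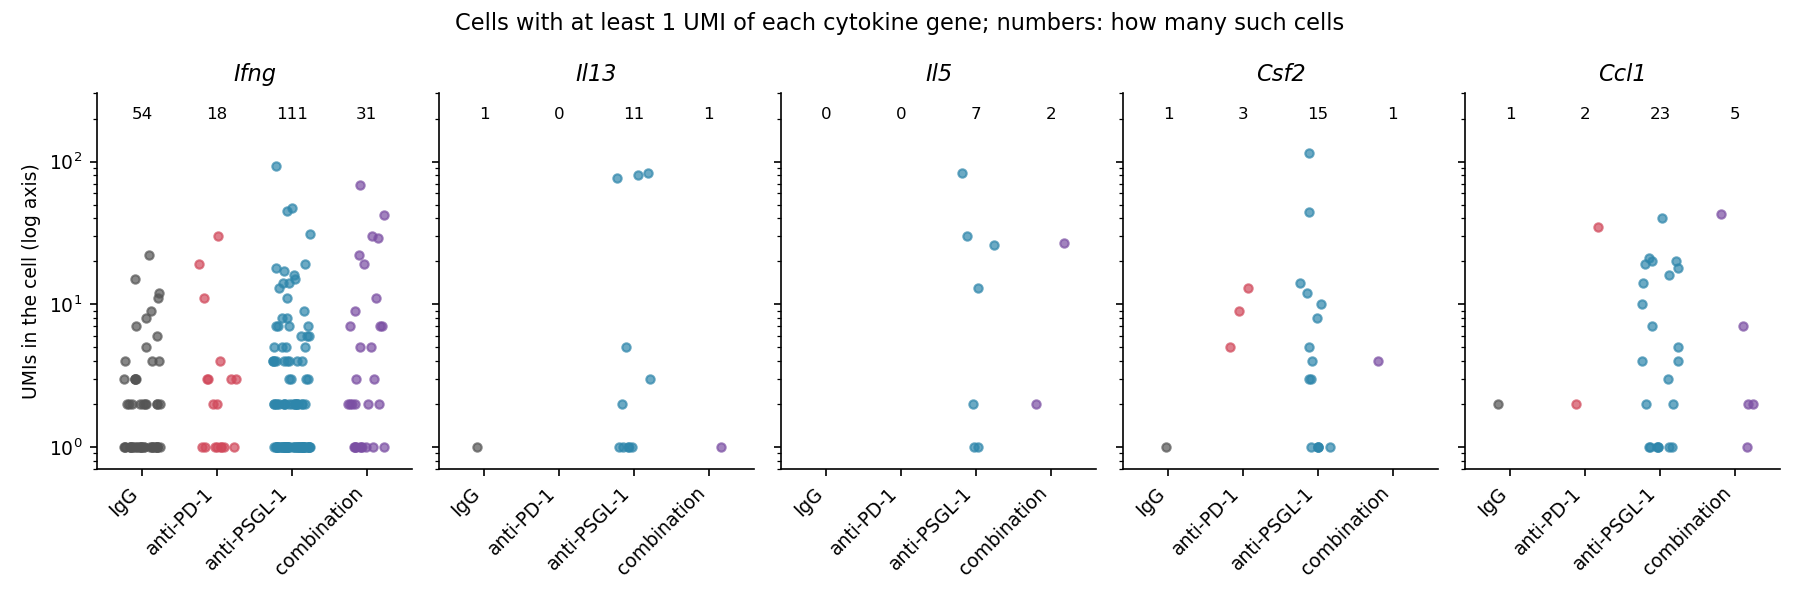
UMIs per cell (logarithmic vertical axis) of Ifng, Il13, Il5, Csf2 and Ccl1 in each conventional CD4 T cell with at least 1 UMI of the gene, by library; the number above each column counts these cells. Ifng is spread over 54, 18, 111 and 31 cells, whereas Il13 and Il5 of the anti-PSGL-1 library come from 11 and 7 cells.

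The other lists had these counts with anti-PSGL-1 against IgG. T cell receptor response genes had 2 higher and 2 lower of 13 measured (median 0.12), with Egr1 at 232, 136, 510.4 and 408 CPM over the 4 libraries. Cytotoxic genes had 3 higher and 4 lower of 14 measured (median -0.27) and inhibitory receptors and exhaustion 1 higher and 2 lower of 8 measured (median -0.10). Naive and recirculating genes had 0 higher and 1 lower of 10 measured (median -0.02), type 1 genes 1 higher and 1 lower of 13 measured (median 0.02), follicular helper genes 0 higher and 2 lower of 7 measured (median -0.26), selectin ligand pathway genes 0 higher and 1 lower of 4 measured (median -0.31), homing genes 0 higher and 2 lower of 16 measured (median -0.01) and hypoxia and glycolysis genes 2 higher and 0 lower of 12 measured (median 0.06). None of the 4 type 17 genes and 13 gamma chain signalling genes measured was past 1.5-fold.

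With the combination the members had more Ifng and more of the heat shock genes than the IgG members, less of the naive genes, and almost no RNA of antigen-presenting cells. Cd69 was at 412 CPM (374 to 453) with IgG and 824 CPM (748 to 905) with the combination, and at 291 and 505 CPM with anti-PD-1 and anti-PSGL-1 alone. The combination was the highest of the 4, at 2.00 (1.75 to 2.29) times IgG. Without the MHC class II cells the ratio was 1.495, just under the 1.5-fold threshold, so this difference passed it only with those cells. Hsp90aa1, a heat-inducible chaperone, was at 687 CPM (637 to 739) and 1584 CPM (1478 to 1694), a ratio of 2.31 (2.08 to 2.55), while it was at 719, 950.1, 714 and 702 CPM in CD8 and 669, 762, 943 and 839 CPM in regulatory T cells over the 4 libraries.

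Of 3131 genes, 221 were higher with the combination (7.06%) and 223 lower (7.12%), with a median log2 ratio of 0.05. Heat shock and dissociation stress genes had 7 higher and 1 lower of 12 measured (median 0.69, without the MHC class II cells 10 and 0 of 12), and T cell receptor response genes 4 higher and 2 lower of 14 measured (median 0.42). Naive and recirculating genes had 0 higher and 4 lower of 10 measured (median -0.41, without the MHC class II cells 0 and 7 of 9). The regulatory T programme had 0 higher and 1 lower of 11 measured (median -0.30, without the MHC class II cells 0 and 7 of 11, without the cells with Il2ra and Ikzf2 1 and 1 of 10), so its count turned on which cells were kept. Ikzf2 alone was past 1.5-fold with all members, at 0.280 (0.215 to 0.360) times IgG.

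Ifng was at 3.40 (2.81 to 4.14) times IgG. In the combination library 201 of its 290 UMIs lay in 12 of the 22 dividing members, at 1359.8 CPM there and 233 CPM in the other 83. Without dividing cells Ifng was at 233 CPM (187 to 287) with the combination and 161 CPM (134 to 192) with IgG. These lay under 1.5-fold apart with overlapping intervals, so the difference passed the threshold only with dividing cells. Dividing members of the other libraries held 160.3, 406 and 264 CPM, so the combination was the highest, on 12 cells. Ccl3 was at 4.74 (3.54 to 6.40) times IgG (9.97 without the MHC class II cells) with 78 of 160 UMIs in 1 cell, and at 0.336 times IgG without dividing cells. Il5 (at least 19.2-fold higher at the floor, exact lower limit 14.6), Ccl1 (54.6, interval 14.4 to 462) and Gzmc (19.0, interval 7.62 to 61.3) again came mostly from 1 cell each, with 27 of 29, 43 of 55 and 34 of 48 UMIs. Igfbp7 had 62 UMIs in 12 cells, at 20.5 (8.90 to 58.0) times IgG.

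The genes named on the lower side were those of antigen-presenting and myeloid cells. H2-Eb1, an MHC class II chain, was at 1633, 796, 949 and 15.1 CPM, with 99.0% of its IgG UMIs in the MHC class II cells, and its ratio was 0.00925 (0.00399 to 0.0183) with and 0.506 without them. Il1b, the interleukin 1 beta gene, was at 778, 503, 419 and 7.56 CPM, with 86.9% of the IgG UMIs in those cells. Alox5ap, Wfdc17 and Plbd1 had no UMI with the combination and Basp1 had 1. Between 84.2 and 97.2% of the IgG UMIs of these 4 genes lay in MHC class II cells. Without those cells the ratios of Il1b and Basp1 were 0.0536 and 0.0410. The combination library held 2 such cells and the IgG library 37.

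Ccr7, the lymph node homing receptor, is shared by naive T cells and migrating dendritic cells, and was at 202, 95.3, 282 and 11.3 CPM with all members and 68.1, 106, 107 and 11.5 CPM without the MHC class II cells. The combination stood lowest both ways, at 0.0562 (0.0204 to 0.124) times IgG with all members and 0.169 times without. Other lists against IgG had these counts. Helper costimulation had 3 higher and 0 lower of 11 measured (median 0.22, without the MHC class II cells 1 and 2 of 11) and homing genes 3 higher and 2 lower of 16 measured (median 0.06, without the MHC class II cells 0 and 4 of 16), so both turned on those cells. Type 1 genes had 2 higher and 0 lower of 13 measured (median 0.18), type 2 genes 2 higher and 0 lower of 4 measured (median 0.63), type 17 genes 0 higher and 2 lower of 4 measured (median -0.40), follicular helper genes 1 higher and 0 lower of 7 measured (median 0.07) and cytokines and chemokines 3 higher and 0 lower of 9 measured (median 0.54). Cytotoxic genes had 4 higher and 1 lower of 14 measured (median 0.40), inhibitory receptors 2 higher and 0 lower of 8 measured (median 0.38), type I interferon response genes 3 higher and 0 lower of 13 measured (median 0.19) and cell cycle genes 5 higher and 2 lower of 15 measured (median 0.01). Hypoxia and glycolysis genes had 1 higher and 0 lower of 12 measured (median 0.29) and selectin ligand pathway genes 0 higher and 1 lower of 4 measured (median 0.07). No gamma chain signalling gene of 13 was past 1.5-fold.

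Set against anti-PD-1 alone, the combination members had more cell cycle and heat shock transcripts and less of the interferon response, regulatory and naive lists. Of 3271 genes, 287 were higher (8.77%) and 429 lower (13.1%), with a median log2 ratio of -0.02. Cell cycle genes had 9 higher and 0 lower of 14 measured (median 0.82, without the MHC class II cells 9 and 0 of 14), among them Hist1h2ap at 9.53 and 346 CPM, which was lowest in the anti-PD-1 library in each of the 3 T cell classes. Type I interferon response genes had 0 higher and 6 lower of 15 measured (median -0.38, without the MHC class II cells 1 and 4 of 13). Heat shock genes had 7 higher and 2 lower of 12 measured (median 0.93, without the MHC class II cells 9 and 0 of 12), the regulatory T programme 1 higher and 4 lower of 11 measured (median -0.51), with Ikzf2 at 0.238 (0.180 to 0.311) times anti-PD-1 (0.158 without the MHC class II cells), and naive and recirculating genes 0 higher and 4 lower of 10 measured (median -0.42).

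Ifng was at 2.61 (2.05 to 3.36) and Cd69 at 2.83 (2.31 to 3.49) times the anti-PD-1 level, and Lag3 at 0.348 (0.228 to 0.521) times. Pdcd1 did not differ beyond counting error, at 1.09 (0.857 to 1.38) times. Other lists had 1 higher and 3 lower of 8 measured (median -0.35) for inhibitory receptors, 4 higher and 1 lower of 14 measured (median 0.26) for type 1, 1 higher and 4 lower of 10 measured (median -0.03) for cytokines and chemokines and 3 higher and 5 lower of 14 measured (median -0.09) for cytotoxic genes. T cell receptor response genes had 3 higher and 4 lower of 14 measured (median 0.20) and homing genes 2 higher and 3 lower of 16 measured (median 0.19). Other genes named on the higher side were Hist1h2ae (at least 13.0-fold at the floor, exact lower limit 10.1), Hist1h1b, a linker histone (5.11, interval 2.51 to 11.7), Gzmc (38.1, interval 6.51 to 1534), Il5 (at least 7.67-fold, exact lower limit 5.85) and Penk, the proenkephalin gene. Penk had 77 of its 78 combination UMIs in 1 cell, and its ratio of 6.18 (3.19 to 13.4) was 0.267 without the top cell of each library, from 1 and 3 UMIs. Hist1h1b was at 0.259 without dividing cells. The lower side was again led by H2-Eb1 (0.0190, interval 0.00813 to 0.0379) and Il1b (0.0150, interval 0.00406 to 0.0391), with Alox5ap, Ccl9 and Ccnd1 at no UMI in the combination and Cxcl9, an interferon-induced chemokine, at 0.0378 (0.0136 to 0.0845). In the anti-PD-1 library 50 to 97.9% of the UMIs of these 6 genes lay in MHC class II cells.

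Set against anti-PSGL-1 alone, the combination members had more of the interferon response and of the inhibitory receptor genes, and less of the cell cycle and naive genes. Isg15 was at 219 CPM (198 to 240.4) with anti-PSGL-1 and 501 CPM (442 to 565) with the combination, a ratio of 2.29 (1.96 to 2.68). Igtp, an interferon-induced GTPase, was at 170.5, 288, 124 and 355 CPM over the 4 libraries, a ratio of 2.87 (2.36 to 3.48). Gbp4, a further interferon-induced GTPase, was at 2.67 (1.99 to 3.57) times and Ifit3 at 5.83 (3.17 to 11.0) times. None of these ratios moved below 2.22 without the MHC class II cells.

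Of 3043 genes, 329 were higher (10.8%) and 212 lower (6.97%), with a median log2 ratio of 0.15. TMM scaling moved that median to -0.01 and gave 155 higher and 325 lower, so the side with more genes depends on the scaling. Type I interferon response genes had 9 higher and 0 lower of 13 measured (median 0.91, without the MHC class II cells 10 and 0 of 13). Inhibitory receptors and exhaustion had 5 higher and 0 lower of 8 measured (median 0.66, with each cell weighed the same 2 and 0 of 8): Lag3 (2.89, interval 1.81 to 4.57), Pdcd1 (2.08, interval 1.72 to 2.52), Rgs16, Tox and Ctla4 (1.55, interval 1.31 to 1.83), of which Ctla4 was at 1.33 without the MHC class II cells. Cytotoxic genes had 5 higher and 1 lower of 13 measured (median 0.40), with Nkg7, a granule protein, at 789, 1418, 602 and 1336 CPM, and Nkg7 was at 2412, 3136, 2171 and 3711 CPM in CD8 T cells. Cell cycle genes had 0 higher and 7 lower of 17 measured (median -0.51) and naive and recirculating genes 0 higher and 5 lower of 9 measured (median -0.62).

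Other lists had 4 higher and 3 lower of 12 measured (median 0.36, without the cells with Il2ra and Ikzf2 0 and 3 of 12) for cytokines and chemokines, 2 higher and 0 lower of 10 measured (median 0.36) for the regulatory programme, 3 higher and 0 lower of 7 measured (median 0.51) for follicular helper, 1 higher and 0 lower of 13 measured (median 0.24) for type 1 and 3 higher and 2 lower of 12 measured (median 0.05) for heat shock genes. T cell receptor response genes had 2 higher and 3 lower of 14 measured (median -0.01) and homing genes 3 higher and 2 lower of 16 measured (median 0.21). Ifng was at 1.84 (1.59 to 2.12) times the anti-PSGL-1 level with all members and at 0.726 times without dividing cells, so its order between these libraries depends on them. Il13 was at 0.0145 (0.000365 to 0.0814) times, from 255 UMIs against 1. Baiap2, which encodes an actin-linking adaptor, had 33 and 30 UMIs (3.36, interval 1.98 to 5.68). The other genes named on the lower side were H2-Eb1 (0.0159, interval 0.00687 to 0.0315), Il1b (0.0180, interval 0.00490 to 0.0463), Basp1 (0.0138, interval 0.000349 to 0.0777), Wfdc17, which had no UMI with the combination, and Cxcl2, a neutrophil chemokine, with 337 of 732 anti-PSGL-1 UMIs in 1 cell (0.0303, interval 0.0111 to 0.0662). With all members Ikzf2 did not differ beyond counting error, at 1.13 (0.857 to 1.49), and Tnfsf8 (0.893, interval 0.675 to 1.17) and Cd40lg (0.894, interval 0.583 to 1.33) did not either. MHC class II cells held 31.0% of the Ikzf2 UMIs of the combination and 23.4% of those of anti-PSGL-1. They held 1.25 and 19.6% of all member UMIs there, so the Ikzf2 ratio is lower without them.

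**Figure D5:**
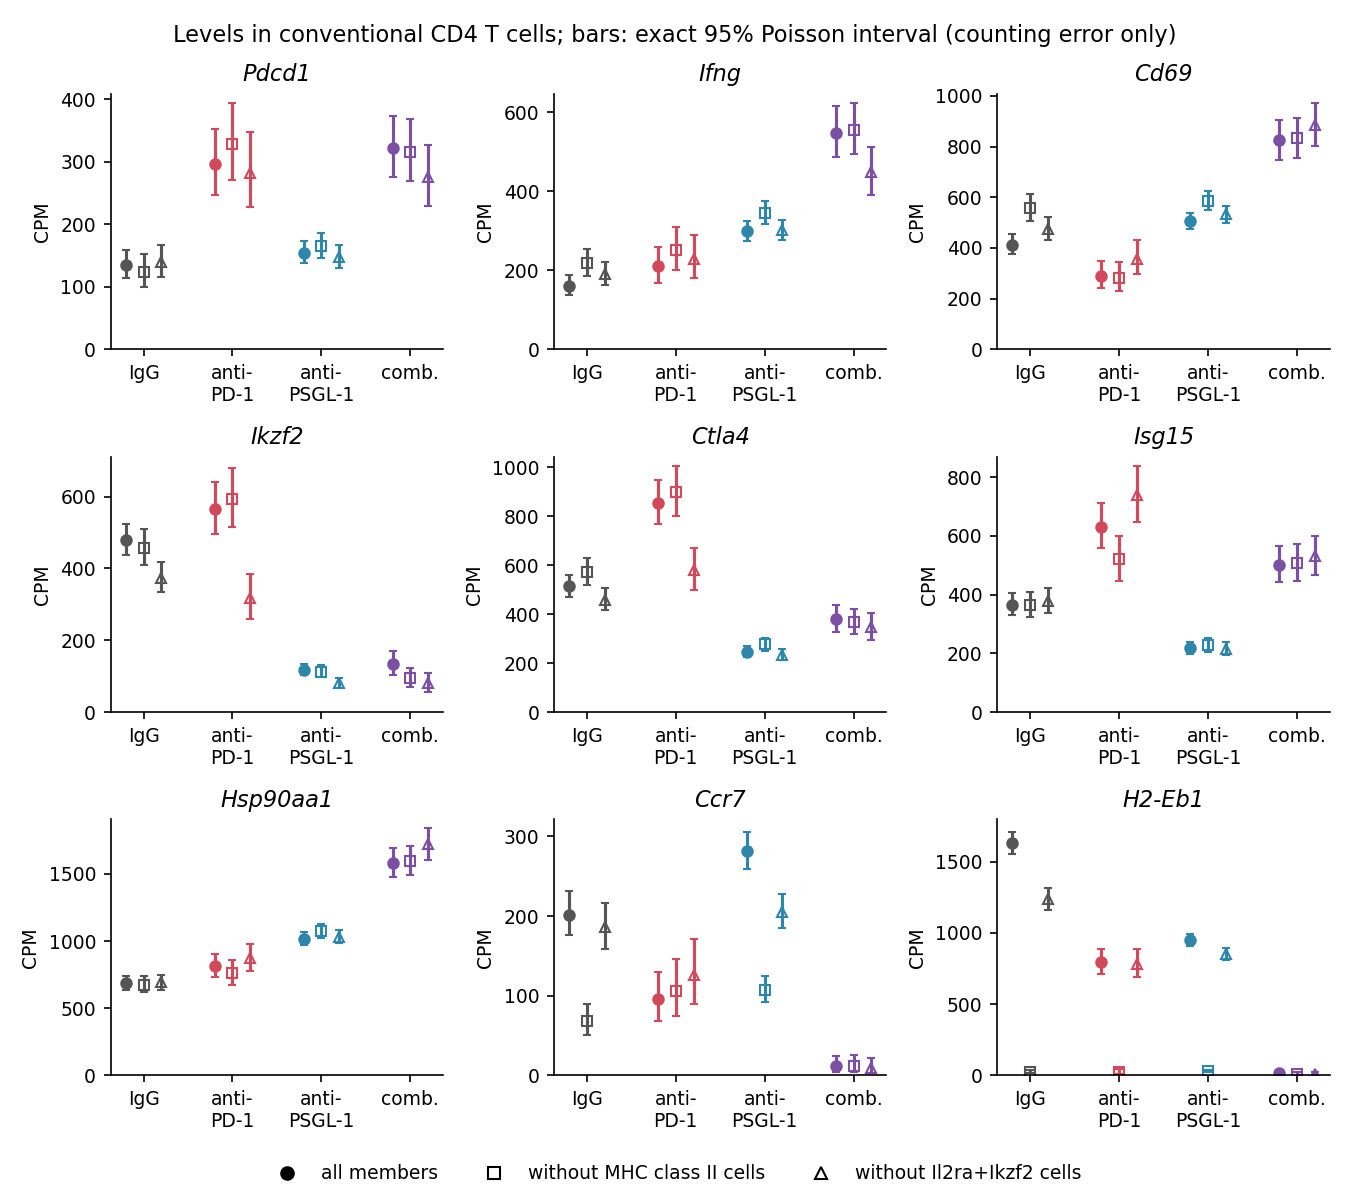
Levels (CPM of summed UMIs) of 9 genes in conventional CD4 T cells by library, for all members (filled circles), without the MHC class II cells (open squares) and without the cells with Il2ra and Ikzf2 (open triangles); bars are exact 95% Poisson intervals. Pdcd1 is high in both libraries that received anti-PD-1, Ikzf2 low in the libraries with anti-PSGL-1 (118 and 134 CPM), and H2-Eb1 stands at 22.7, 20.0, 28.0 and 11.5 CPM without the MHC class II cells.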

How the data were processed

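Single-cell RNA sequencing of immune cells sorted from tumours was used, with 1 library for each of the 4 treatments. The deposited matrices hold raw UMI counts per gene and cell for 27998 genes, made by the authors with Cell Ranger 3.1.0 on mm10, per the submitters' processing notes, which also name FastQC. How reads were aligned beyond that is not given in the sources used here. Libraries held 4614 to 9733 barcodes.

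The members, markers and lists were chosen with earlier results of these data known. Cells were kept and gated as the report states, in Python 3.11.15 with scipy 1.17.1 and pandas 2.3.3. No doublets were removed: Scrublet in scanpy 1.11.5 called 1, 84, 0 and 42 cells at its own threshold and so had not worked, and leaving out the 717, 219, 377 and 154 top-scoring barcodes (0.8% per 1000 cells) was an alternative. UMIs were summed per library and class. Libraries were compared by ratios of CPM with exact intervals, since 1 library per treatment allows no test. A group at 0 UMIs was given a floor of 3 UMIs per library. Members were tested against regulatory and CD8 T cells with edgeR 4.0.16 in R 4.3.3 (TMM, filterByExpr, quasi-likelihood, library as a block because both classes come from the same library, adjusted p under 0.05), without the 11 genes of the gate and on 4 libraries per class. DESeq2 1.42.0 was an alternative.

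Genes named were the gate genes, the 5 given markers, Pdcd1 and Selplg, members of the lists, and the leading genes: for libraries the 6 higher and 6 lower at 50 CPM or more, ranked by the interval bound nearest 1, and for classes the 8 higher and 8 lower called genes of largest fold. Genes named for classes also had to average 50 CPM or more in either class and go the same way in 4 of 4 libraries. Their shared direction across libraries was thus fixed by the choice. Receptor, immunoglobulin, mitochondrial, ribosomal protein, haemoglobin, sex-linked, predicted and other lineage genes were left out of the ranking, and 1 further gene that the rule names is not reported here. The lists were 18 T cell programmes and 9 other lineages.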

Additional observations from a re-analysis of the deposited data

How the results depend on the processing

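Of 940 ratios between libraries recomputed for named genes (94 gene and comparison pairs), 931 were not counted as reversed and 248 moved beyond their interval. Only ratios at 1.5-fold or more with all members could be counted as reversed. Of 483 log2 differences between classes (44 genes), 481 were not counted as reversed, which only called genes could be, and 16 no longer passed the threshold. Leaving out MHC class II cells, or the cell with the most UMIs, was chosen after seeing the data. The members' few cells and low depth limit every level under about 50 CPM.

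Shares of kept cells with IgG were 2.47% without other lineage cells, 2.55% without MHC class II cells and 1.78% with the gate at 1000 UMIs. Its shares of T cells were 6.16, 6.35 and 4.53%, and 6.19% at 2000 UMIs. With anti-PD-1 they were 0.970% of kept cells and 3.01% of T cells at 1000 UMIs. With anti-PSGL-1 the shares of kept cells were 4.43% without other lineage cells, 3.46% at 2000 and 1.75% at 1000 UMIs, and those of T cells 10.6, 7.85 and 4.56%. With the combination they were 1.01% of kept cells at 1000 UMIs, and 3.88 and 2.07% of T cells at 2000 and 1000 UMIs.

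At a minimum of 20 CPM the genes past 1.5-fold were 794 higher and 646 lower with anti-PD-1 against IgG, 310 and 514 with anti-PSGL-1, 653 and 742 with the combination, 856 and 1045 for the combination against anti-PD-1, and 781 and 562 against anti-PSGL-1. TMM scaling gave 119 lower with anti-PSGL-1 against IgG, and 155 higher and 325 lower with the combination against anti-PSGL-1. The gate at 2000 UMIs gave 337 lower in the last comparison.

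Against regulatory T cells the counts were 350 higher and 272 lower with DESeq2, and 131 and 123 with the gate at 2000 UMIs, which tests fewer cells. Without the replicate block (the library shared by both classes) they were 446 higher and 300 lower. Leaving out 1 library gave 412 to 551 higher and 275 to 408 lower, lowest without IgG. Against CD8 T cells all alternatives run stayed within 1.5 times of 1717 and 1704.

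Without dividing cells the ratios of Tnfsf8 (anti-PD-1 to IgG, 0.953), Il4 (anti-PSGL-1 to IgG, 0.326), Ccl3 (combination to IgG, 0.336), Hist1h1b (combination to anti-PD-1, 0.259) and Ifng (combination to anti-PSGL-1, 0.726) reversed. So did Il4 without other lineage cells (0.254), Penk without cells carrying naive T cell genes (0.0748) or the top cell (0.267), and, with the gate at 2000 UMIs, Hist1h1b (0.356) and the differences of Icos (-0.28) and Selplg (-0.32) from regulatory T cells. Beyond the cells left out, the causes were not tested.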

Other observations

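A pair of anti-PSGL-1 members are described because of their cytokine values. The first, which passed the gate on few T cell receptor subunit UMIs, held 30 UMIs of Il5, 36 of Areg (amphiregulin), 9 of Il1rl1 and 5 of Gata3, with 1 of Cd3d, 1 of Cd3e and 1 of Cd4 among 6270. Type 2 innate lymphoid cells share the former genes and lack a T cell receptor, and which cell type it was could not be settled from these counts. The second held 16 UMIs of Il17a, the interleukin 17A gene, with 1 of Cd3d, 6 of Cd3g and 1 of Cd4 among 3150.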
